A study of Mus musculus with 9 samples.

Results

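Cytosolic ribosomal protein genes were taken from the mouse annotation by name: protein-coding genes whose symbol starts with Rpl or Rps and a digit, or is Rplp0, Rplp1, Rplp2 or Rpsa, without the ribosomal S6 kinases. The rule took 92 of the 54532 gene IDs counted. Of these, 46 encode standard proteins of the large subunit and 31 of the small subunit, 8 are paralogs of a standard protein (Rpl3l, Rpl7l1, Rpl10l, Rpl22l1, Rpl36al, Rpl39l, Rps27l and Rps27rt), 6 have pseudogene names although they are annotated as protein-coding, and Rps19bp1 encodes a protein that binds Rps19 and is no part of the ribosome. All 77 standard genes had enough counts to be tested, as did 5 paralogs, 3 of the pseudogene-named genes and Rps19bp1, which made 86 tested genes. Rpl10l, Rpl36al, Rpl39l, Rpl36-ps4, Rpl36a-ps1 and Rpl9-ps1 were not tested, and 3 of the 92 genes had no count in any library. For each of these 3 a count of 0 allows up to the level of 3 counts, which was 0.141 to 0.212 CPM (read counts scaled by library size) over the libraries.

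The cytosolic ribosome translates messenger RNA: the small subunit decodes it and the large subunit forms peptide bonds, and each standard protein is needed in close to equal numbers. Most of these genes carry a 5′ terminal oligopyrimidine (TOP) start, a C followed by a run of pyrimidines at the first transcribed bases, through which the kinase mTOR and the RNA-binding protein Larp1 control their translation together. Neurons place part of their ribosomes in dendrites and axons, and their ribosomal protein transcripts are short, abundant and present in every cell type of the brain.

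RNA came from the striatum of mice on a C57BL/6J background, in 3 groups of 3 libraries: mice lacking cGAS (cGAS KO), mice lacking STING (STING KO) and wild-type mice (WT). The deficient mice were made with CRISPR-Cas9. By the series text the brains were taken after ischemic stroke, which all 3 groups then share, no uninjured library was analysed here, and the time after stroke is not stated in the labels. cGAS is a sensor of cytosolic DNA that produces cGAMP, to which STING responds by starting an interferon response, and each comparison asks how ribosomal protein transcripts differ with genotype. The labels do not say that replicates are separate animals, and p-values therefore measure the spread between these libraries.

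Libraries held 14129021 to 21286775 counts. Cgas was at 1.10, 0.377 and 0.262 CPM in cGAS KO, 1.55, 1.04 and 1.45 CPM in STING KO, and 1.40, 2.63 and 3.18 CPM in WT, and the STING gene Tmem173 was at 2.67, 1.66 and 2.75 CPM in cGAS KO, 2.17, 1.04 and 1.84 CPM in STING KO, and 4.06, 3.003 and 1.34 CPM in WT; the first did not overlap between cGAS KO and WT and the second overlapped between STING KO and WT. Which exons were edited was not analysed here. In each group 1 library had few genes with low counts. cGAS KO 2, STING KO 2 and WT 3 had 2280 to 4723 genes with 1 to 9 counts, against 7096 to 7927 in the other 6 libraries, and they are called the low-complexity libraries here. The 16 markers of striatal medium spiny neurons, Ppp1r1b, Drd1 and Drd2 among them, were all detected and summed to 10596 to 12909 CPM in cGAS KO, 10406 to 11069.5 CPM in STING KO and 6433 to 11746 CPM in WT, with the lowest value in WT 3. The 8 choroid plexus markers summed to 28.5 to 217 CPM, 62.9 to 476 CPM and 32.5 to 2768 CPM in the same order, with the highest value in WT 1. The 10 cortical neuron markers summed to 811 to 1368 CPM, 962 to 1833 CPM and 1195 to 1762 CPM. In tissue RNA, fewer cells of a type and less RNA per cell cannot be told apart.

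The first bases of 6 of these transcripts are shown because they carry the TOP start that the family is known for, and because the genes lie at both ends of the range of values described further on. Each window is 30 bases from the RefSeq promoter table (GRCm38.p6), on the gene's strand, with 10 bases before the annotated start and the first 20 bases of exon 1. Capitals mark the pyrimidine run that begins at the annotated start.
Rpl35 (chr2:39005112-39005141, minus strand): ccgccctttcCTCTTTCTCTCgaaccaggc
Rpl38 (chr11:114668570-114668599, plus strand): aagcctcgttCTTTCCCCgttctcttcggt
Rpl28 (chr7:4792955-4792984, plus strand): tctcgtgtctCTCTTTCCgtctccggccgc
Rps27 (chr3:90213629-90213658, minus strand): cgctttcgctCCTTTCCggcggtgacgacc
Rpl35a (chr16:33056472-33056501, plus strand): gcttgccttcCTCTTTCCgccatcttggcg
Rps15a (chr7:118116128-118116157, minus strand): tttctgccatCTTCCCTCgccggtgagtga
A TOP start was counted where the annotated start is a C followed by at least 4 bases that are C or T, on the transcribed strand only. It was found in 14 of the 78 promoters listed for these genes (17.9%) and in 823 of all 32851 promoters of the same length (2.51%). Within 10 bases before to 15 bases after the start, such a run occurred in 42 of the 78 (53.8%) and in 30.7% of all promoters. The table holds promoters of 66 of the 92 genes. The 14 genes with the start were Rpl14, Rpl15, Rpl28, Rpl35, Rpl35a, Rpl38, Rplp2, Rps6, Rps10, Rps15a, Rps18, Rps21, Rps27 and Rps27rt. A match describes the letters at an annotated start, and a missing match does not show that a transcript lacks a TOP start.

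Ribosomal protein transcripts took the smallest share of counts in the low-complexity library of each group. The 92 genes together held 1.002%, 0.664% and 0.899% of the counts of cGAS KO replicates 1, 2 and 3, 0.963%, 0.481% and 0.853% in STING KO, and 0.898%, 0.767% and 0.256% in WT. The group means were 0.855% ± 0.173 (SD, n = 3) in cGAS KO, 0.765% ± 0.253 in STING KO and 0.640% ± 0.339 in WT, and the ranges overlapped. Without the low-complexity libraries they were 0.950% ± 0.0722 (SD, n = 2), 0.908% ± 0.0776 and 0.832% ± 0.0922. Large subunit genes held more counts than small subunit genes in every library, and the ratio of the 2 was 1.41 to 1.52 in the usual 6 libraries and 1.26 to 1.31 in the low-complexity libraries. The 301 annotated genes with pseudogene names of the family, which are outside the rule, took 0.0196% to 0.0250% of counts in the usual libraries and 0.00906% to 0.0202% in the others.

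**Figure D1:**
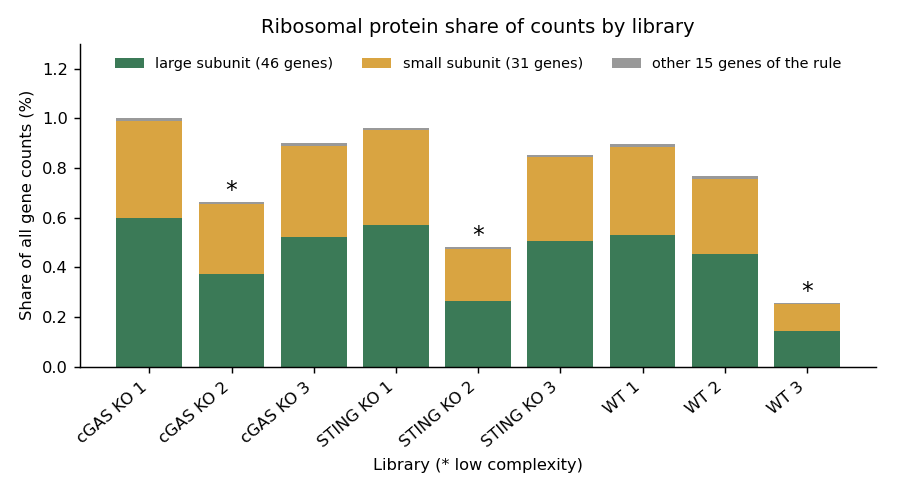
Share of all gene counts (%) held by the ribosomal protein genes in each of the 9 libraries, stacked by large subunit, small subunit and the other 15 genes, with low-complexity libraries starred. The starred bars reach 0.664%, 0.481% and 0.256%, each the lowest of its group.

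Most standard genes were lower in the low-complexity library than in the other libraries of its group, and the depth of this gap differed from gene to gene. The gap is the log2 CPM of that library minus the mean of the other libraries of its group. Its median over the 77 standard genes was -0.55 in cGAS KO 2, -1.05 in STING KO 2 and -1.82 in WT 3, with 68, 72 and 77 of the 77 genes below 0. The medians of 14456 other tested protein-coding genes were -0.03, -0.10 and -0.10. Large subunit genes had medians of -0.62, -1.25 and -1.94, and small subunit genes had medians of -0.42, -0.95 and -1.66. Each gap rests on 1 library, so it describes that library and has no test.

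Rpl35, a protein at the exit of the peptide tunnel (chr2:39001580-39005624, minus strand), had the deepest mean gap over the 3 libraries. Gene positions are those of GENCODE M21 on GRCm38. It was at 45.8, 13.9 and 33.3 CPM in cGAS KO, 46.3, 5.63 and 36.3 CPM in STING KO, and 37.1, 31.7 and 1.48 CPM in WT. WT 3 thus had the lowest level of all, WT 1 lay within the range of the usual knockout libraries, and WT 2 lay just below it. Rpl38, whose loss in mice changes the axial skeleton (chr11:114668524-114672331, plus strand), was at 42.6, 13.4 and 28.1 CPM in cGAS KO, 42.7, 3.62 and 26.96 CPM in STING KO, and 31.9, 27.8 and 2.82 CPM in WT. Between these in mean gap lay Rpl21, a large subunit protein, with gaps of -1.80, -3.27 and -2.87, in the order cGAS KO 2, STING KO 2 and WT 3. Rpl36 (-1.33, -2.53 and -3.86), Rpl41 (-1.24, -2.51 and -3.43), Rpl28 (-1.35, -2.41 and -3.41) and Rps15 (-1.25, -2.69 and -3.03) followed, the last a small subunit protein near the decoding site.

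A few genes did not share the gap in cGAS KO 2, STING KO 2 or both. In WT 3 every standard gene had a negative gap. Rps14, a protein of the small subunit platform, was at 161, 251 and 163 CPM in cGAS KO, 158, 219 and 127 CPM in STING KO, and 127, 129 and 105 CPM in WT. In both knockouts its low-complexity library was the highest, and in WT it was the lowest. Rps15a (chr7:118104372-118116188, minus strand) was at 84.4, 104 and 85.8 CPM in cGAS KO, 84.6, 83.5 and 73.1 CPM in STING KO, and 70.9, 76.99 and 71.8 CPM in WT, with gaps of 0.29, 0.09 and -0.04. Rpl24, at 2.14, 3.39 and 1.83 CPM in cGAS KO, 1.12, 2.23 and 1.45 CPM in STING KO, and 0.676, 1.501 and 0.706 CPM in WT, also had its highest level in the low-complexity knockout libraries. Rpl3, a core protein near the peptidyl transferase centre, had gaps of 0.08, -0.18 and -0.82, and the TOP-start gene Rpl35a had gaps of 0.05, 0.07 and -0.87. In cGAS KO 2 the genes with a positive gap, above the mean of the other libraries, were Rpl3, Rpl24, Rpl27, Rpl34, Rpl35a, Rps3a1, Rps14, Rps15a and Rps27a. In STING KO 2 they were Rpl24, Rpl34, Rpl35a, Rps14 and Rps15a.

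**Figure D2:**
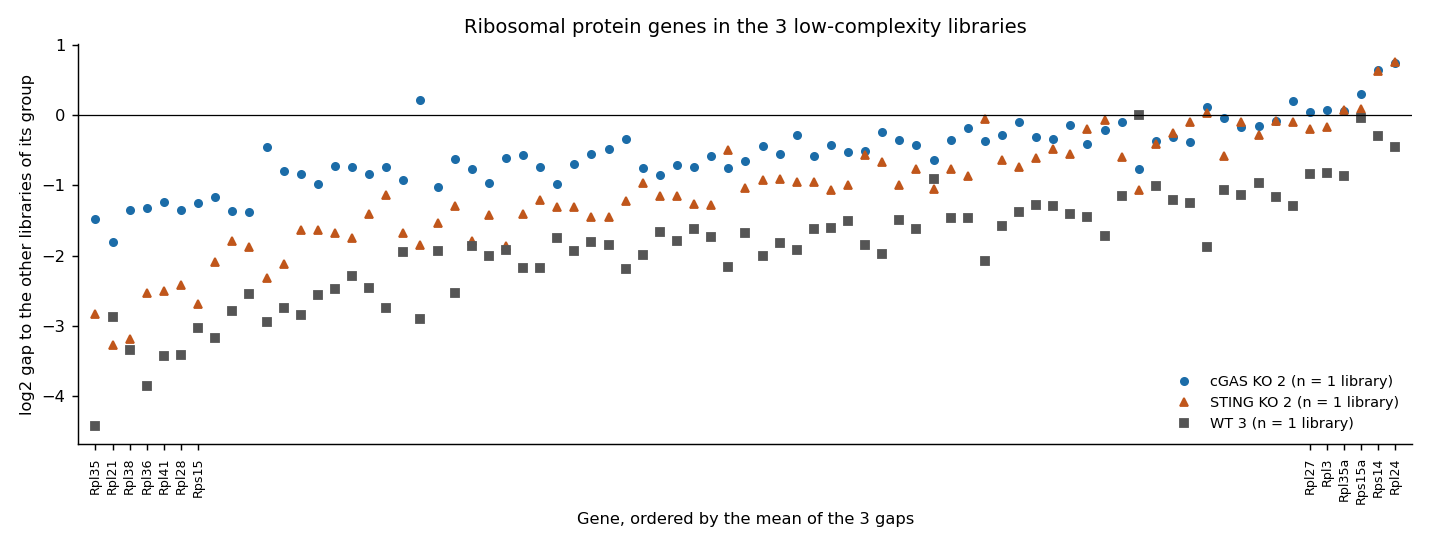
Gap (log2) of each of the 77 standard ribosomal protein genes in cGAS KO 2, STING KO 2 and WT 3, each 1 library against the other libraries of its group, ordered by the mean of the 3 gaps and named at both ends of the order. Rpl35 is lowest with a gap of -4.43 in WT 3, and Rps14 and Rpl24 lie above 0 in both knockout libraries.

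The order of the genes was alike in the 3 libraries. Across the 77 standard genes the gaps of cGAS KO 2 and STING KO 2 had a Pearson correlation of 0.85, those of cGAS KO 2 and WT 3 of 0.74, and those of STING KO 2 and WT 3 of 0.83. Across the 14456 other protein-coding genes, which were not matched in level, the values were 0.44, 0.53 and 0.43. Spearman correlations were 0.82, 0.71 and 0.80 in the standard genes and 0.53, 0.58 and 0.52 in the others. These are descriptions across genes, which share libraries, depth and normalization and are not replicates.

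Other short transcripts also had gaps below 0. Protein-coding genes outside the family with a reference transcript of 500 to under 1000 bases had median gaps of -0.71 in cGAS KO 2, -1.16 in STING KO 2 and -1.41 in WT 3 (698 genes), and the 41 standard ribosomal protein genes of that length had -0.46, -1.06 and -1.81. At 1000 to under 2000 bases the medians were -0.35, -0.62 and -0.71 over 3050 other genes and -0.61, -1.06 and -1.86 over 20 ribosomal protein genes. The 4603 other genes with transcripts of 4000 bases or more had medians of 0.24, 0.28 and 0.38. Rps15a, the 1 ribosomal protein gene with such a long reference transcript (5179 bases), was among the genes with no gap in the knockouts. So were Rps14, Rpl24, Rpl34 and Rpl35a, with reference transcripts of 597, 677, 480 and 491 bases. Among the 77 standard genes the gap and the length had a Spearman correlation of 0.12, 0.09 and 0.22 across genes, against 0.45, 0.47 and 0.54 among the other genes. The 77 mitochondrial ribosomal protein genes tested had medians of -0.38, -0.82 and -1.02, and the 86 nuclear respiratory chain genes tested had medians of -0.78, -1.41 and -1.77, the latter deeper than the ribosomal protein genes in both knockouts.

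The gap also differed between classes of GC content, without a steady order among the ribosomal protein genes. The 13 standard genes with a GC content of 55% or more had median gaps of -0.97, -1.54 and -2.00. Medians were -0.54, -0.999 and -1.72 for the 36 genes with 50% to under 55%, -0.35, -0.67 and -1.87 for the 25 genes with 45% to under 50%, and -0.55, -0.90 and -1.16 for the 3 genes under 45%. In other protein-coding genes the medians were -0.24, -0.48 and -0.38 in the highest class and 0.17, 0.32 and 0.18 in the lowest. In WT 3 the medium spiny neuron markers were low too, with a median gap of -1.10 over 16 genes, against -0.13 in cGAS KO 2 and -0.01 in STING KO 2. The 10 cortical neuron markers had median gaps of 1.31, -0.95 and 1.74, in the order cGAS KO 2, STING KO 2 and WT 3. The 8 choroid plexus markers had median gaps of -1.15, 3.07 and -3.15 in that order. The 10 microglia markers had median gaps of -1.004, -0.738 and -0.928. Medians were -0.393, -0.36 and -0.504 for the 8 astrocyte markers, and -0.298, -0.579 and -0.237 for the 8 endothelial markers. The 8 oligodendrocyte markers had medians of -0.055, -0.189 and -1.02, and the 5 erythrocyte markers had 0.529, -0.254 and -1.52. Marker lists thus shifted in the low-complexity knockout libraries as well. The cortical neuron, choroid plexus and erythrocyte medians differed in direction between libraries, and those of the other lists were below 0 in all 3. The part of transcript length, GC content and tissue makeup in the gap of the ribosomal protein genes was not tested.

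**Figure D3:**
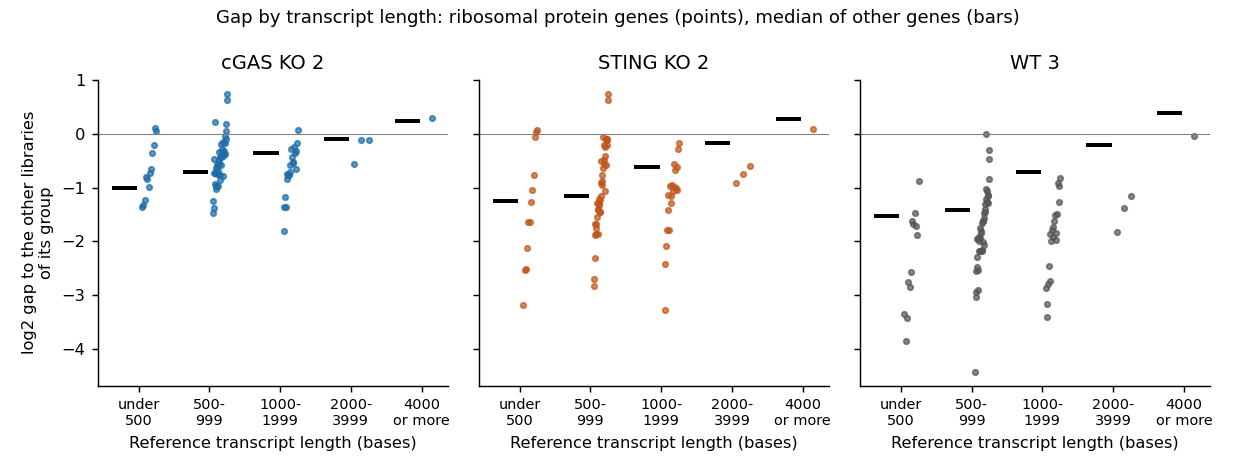
Gap (log2) of the 77 standard ribosomal protein genes (points) by the length of the reference transcript in bases, beside the median gap of other protein-coding genes of that length (bars), in cGAS KO 2, STING KO 2 and WT 3. In WT 3 most points lie below the bar of their length class, and at 500 to under 1000 bases the medians are -1.81 and -1.41.

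The proteins of the P-stalk recruit the elongation factors to the large subunit. Rplp1 (chr9:61913284-61914542, minus strand) was at 312, 146 and 268 CPM in cGAS KO, 328, 95.1 and 267 CPM in STING KO, and 261, 215 and 39.95 CPM in WT. Rplp0, the anchor of the stalk (chr5:115559467-115563727, plus strand), was at 176, 147 and 201 CPM in cGAS KO, 153, 74.5 and 146 CPM in STING KO, and 174, 143 and 55.8 CPM in WT. Rplp2 was at 92.1, 68.6 and 66.5 CPM in cGAS KO, 90.4, 46.3 and 79.7 CPM in STING KO, and 70.8, 55.7 and 22.6 CPM in WT. For all 3 the low-complexity library had the lowest or nearly the lowest level of its group, and the groups overlapped. Their log2 fold changes in cGAS KO against WT were 0.49 (SE 0.40), 0.49 (SE 0.64) and 0.61 (SE 0.39) for Rplp0, Rplp1 and Rplp2.

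Rpl5 and Rpl11 form a particle with 5S ribosomal RNA that binds Mdm2 when ribosome assembly is disturbed. Rpl5 (chr5:107900502-107909005, plus strand) was at 168, 171 and 200.4 CPM in cGAS KO, 158, 102 and 149 CPM in STING KO, and 165, 152 and 71.01 CPM in WT. Rpl11 (chr4:136028265-136053428, minus strand) was at 118, 40.7 and 96.4 CPM in cGAS KO, 114, 27.9 and 92.4 CPM in STING KO, and 88.4, 68.9 and 13.3 CPM in WT. The 2 partners differed in the low-complexity libraries: the gaps of Rpl5 were -0.10, -0.59 and -1.16, and those of Rpl11 were -1.39, -1.88 and -2.55.

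Rpl3 (chr15:80077791-80091868, minus strand) and Rpl4 are large proteins of the subunit core. Rpl3 was at 404, 496 and 548 CPM in cGAS KO, 369, 311 and 336 CPM in STING KO, and 345, 339.7 and 193 CPM in WT. All 3 cGAS KO libraries, the low-complexity one included, were above every library of the other groups. Rpl4, which lines the peptide exit tunnel (chr9:64173375-64178666, plus strand), was at 349, 311 and 431 CPM in cGAS KO, 332, 208 and 306 CPM in STING KO, and 319, 319 and 132 CPM in WT. Rpl10, which completes the large subunit late in assembly (chrX:74270812-74273135, plus strand), was at 168, 135 and 167 CPM in cGAS KO, 162, 129 and 145 CPM in STING KO, and 155, 146 and 65.3 CPM in WT. For Rpl4 and Rpl10 the groups overlapped. Rpl39, a small protein of the exit tunnel, was at 48.7, 33.6 and 39.1 CPM in cGAS KO, 41.4, 36.9 and 35.8 CPM in STING KO, and 46.7, 42.8 and 10.5 CPM in WT, and in STING KO its low-complexity library lay between the others.

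Among small subunit proteins, Rpsa (chr9:120127689-120132369, plus strand), also known as a laminin-binding protein, was at 312, 221 and 419 CPM in cGAS KO, 320.4, 139 and 298 CPM in STING KO, and 332, 298 and 90.8 CPM in WT. Rps3, which guards the entry of the messenger channel, was at 183, 164 and 183 CPM in cGAS KO, 181, 145 and 173 CPM in STING KO, and 163, 139.6 and 77.3 CPM in WT. Rps4x (chrX:102184941-102189394, minus strand), the X-linked gene for Rps4, was at 162, 139 and 213 CPM in cGAS KO, 156, 87.6 and 143 CPM in STING KO, and 162, 161 and 52.2 CPM in WT. Each had its lowest level in WT 3. Rps6 (chr4:86854660-86857412, minus strand), the substrate of the S6 kinases, was at 157, 132 and 179 CPM in cGAS KO, 156, 107 and 145 CPM in STING KO, and 158, 152 and 63.2 CPM in WT, and the groups overlapped.

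Rps27a encodes ubiquitin fused to a small subunit protein, and it scattered within groups. It was at 52.2, 86.5 and 106 CPM in cGAS KO, 81.8, 14.5 and 34.2 CPM in STING KO, and 91, 32.5 and 7.20 CPM in WT. STING KO 1 and STING KO 3 differed, as did WT 1 and WT 2 and the usual libraries of cGAS KO, in each pair by 2-fold or more. Its transcript shares 53.8% of its 100-base stretches with other genes.

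**Figure D4:**
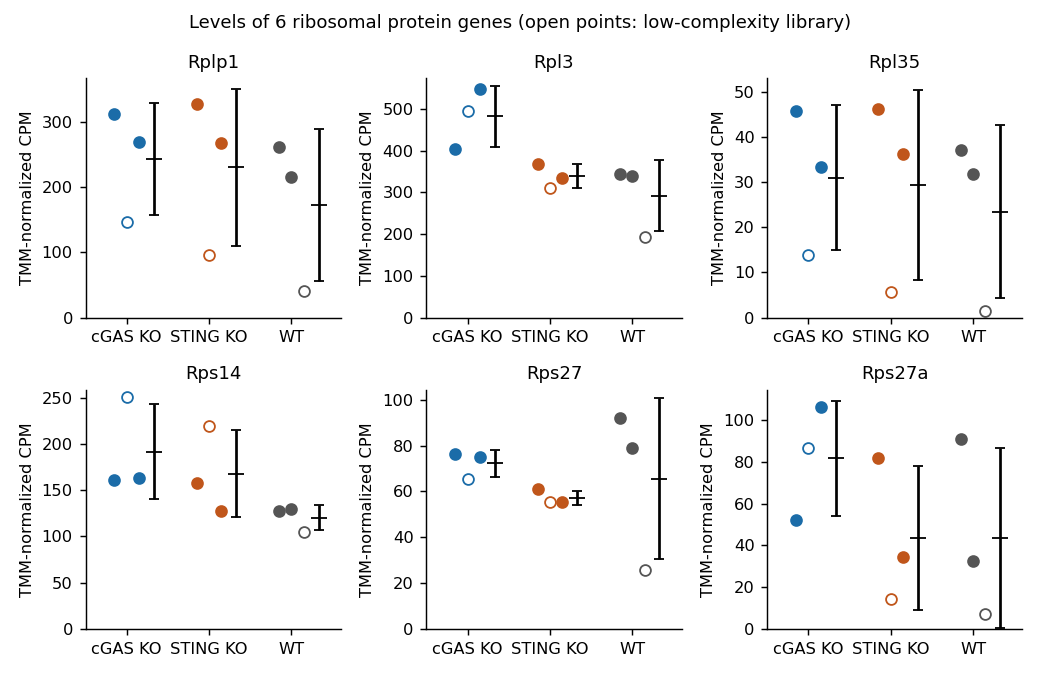
TMM-normalized CPM of Rplp1, Rpl3, Rpl35, Rps14, Rps27 and Rps27a in the 9 libraries, with low-complexity libraries as open points and the mean ± SD of each group (n = 3) in black. The open points of Rplp1 and Rpl35 are the lowest of their groups, while those of Rps14 are the highest in both knockouts.

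Levels of different genes were compared per length of exon sequence, as the mean CPM over the 9 libraries per kilobase of annotated exons. The median standard gene was at 47.1 CPM per kilobase. The highest were Rplp1 at 430.5, Rps3a1 at 217 and Rps15 at 169 CPM per kilobase. In single libraries Rplp1 ranged from 80.1 to 657 CPM per kilobase, which overlaps the ranges of Rps3a1 (86.3 to 309) and Rps15 (21.7 to 275). The lowest were Rps10 at 1.01, Rpl24 at 1.62 and Rpl13a at 4.38 CPM per kilobase. Scaled to the reference transcript instead, a choice made after seeing the data, the median was 102. The highest were then Rplp1 at 430.5, Rpl3 at 275 and Rps14 at 268 CPM per kilobase, with Rps3a1 at 217 and Rps15 at 213. The lowest were again Rpl24, Rps10 and Rpl13a.

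These 3 lowest genes share a feature of the annotation. More than 50% of the reference transcripts of Rpl24 (71.5%), Rpl13a (59.3%) and Rps10 (53.6%) lies in exons of another annotated gene on the same strand (Gm28037, Gm45713 and RPS10-NUDT3), and the same holds for Rpl36al (63.1%, Gm49383). No other member passes 50%. These 4 overlapping genes had 0 counts in all 9 libraries. Rps10, a protein of the small subunit head, was at 2.38, 0.904 and 1.11 CPM in cGAS KO, 3.85, 1.67 and 3.41 CPM in STING KO, and 3.25, 1.98 and 2.54 CPM in WT, while its processed copy Rps10-ps2 was at 29.9, 29.2 and 36.6 CPM in cGAS KO, 32.8, 15.3 and 26.7 CPM in STING KO, and 19.5, 18.9 and 7.84 CPM in WT. Rps10-ps2 held 75.5% to 97.0% of the counts of the pair in every library. Rpl13a, which is also known from interferon-gamma-controlled translation, was at 14.1, 4.90 and 11.6 CPM in cGAS KO, 13.5, 3.76 and 13.1 CPM in STING KO, and 11.003, 10.03 and 1.41 CPM in WT. The lowest mean level of a standard gene that is not inside such a gene was 17.1 CPM. The sources used here do not say how reads in overlapping exons or with several matches were counted, so the levels of these 4 genes are uncertain.

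Near-identical copies touch most of the family. Of the 92 reference transcripts, 80 share at least 1 stretch of 100 bases with a transcript of another gene, 34 share at least 50% of their stretches, and the median gene shares 34.5%. Reference transcripts of Rpl35, Rpl23a and Rps25 lie over 50% under exons of the opposite strand, and without a known strand setting reads of both strands cannot be told apart there.

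In cGAS KO against WT, ribosomal protein genes were higher on balance and no single gene passed the test. Among the 86 tested genes 81 had a log2 fold change above 0, against 48.5% of all 17821 genes tested, and the median was 0.45, against -0.01 over all genes. By edgeR's quasi-likelihood test with Benjamini-Hochberg adjustment over all genes, 0 of the 86 were called, as were 0% of all genes, and the smallest adjusted p of a member was 0.99994. DESeq2 and limma-voom also called 0 members. At an unadjusted p under 0.05, 6 members were higher and 0 lower, against 1.04% and 0.982% of all genes (2.03% in both directions). The libraries of the 2 groups did not overlap for 13 members, all higher in cGAS KO, against 4.01% of all genes that were higher and 3.98% that were lower. The 6 were Rpl3, Rpl24, Rps3a1, Rps14, Rps19 and Rps12-ps3, and the 13 were Rpl3, Rpl5, Rpl17, Rpl24, Rpl26, Rpl30, Rps3, Rps3a1, Rps7, Rps14, Rps15a, Rps19 and Rps12-ps3.

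Rpl3 had a log2 fold change of 0.72 (SE 0.24, edgeR adjusted p = 0.99994, higher in 3 of 3 libraries). Rps14 had 0.67 (SE 0.25). Rps19, the gene most often mutated in Diamond-Blackfan anaemia, was at 99.2, 75.4 and 96.7 CPM in cGAS KO, 96.9, 78.95 and 74.2 CPM in STING KO, and 70.2, 64.7 and 28.1 CPM in WT, with a log2 fold change of 0.73 (SE 0.31). Its cGAS KO libraries lay above all WT libraries. Rps12-ps3, whose whole transcript is shared with other genes, was at 25.9, 23.7 and 30.6 CPM in cGAS KO, 26.5, 18.6 and 20.6 CPM in STING KO, and 18.4, 17.8 and 9.67 CPM in WT (log2 fold change 0.80, SE 0.27). On the lower side stood Rps10 (-0.81, SE 0.51), Rps19bp1 (-0.18, SE 0.57) and Rpl3l (-0.12, SE 0.89), which all overlapped between groups. The last 2 changed direction without WT 1, to 0.23 and 0.17, and Rps19bp1 also without cGAS KO 2, to 0.08. Cell type markers also had shifted medians, although edgeR called 0 of them. The median log2 fold change was -0.70 for cortical neuron markers, -2.36 for choroid plexus markers and 0.26 for medium spiny neuron markers. Without the low-complexity libraries these medians were -0.35, -2.61 and 0.07. What part the markers have in the values of the ribosomal protein genes was not tested.

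The size of the median in cGAS KO against WT rested on WT 3. Without WT 3 alone it was 0.05, with 57 of 86 above 0, and without WT 1 it was 0.78. Without all 3 low-complexity libraries it was 0.22, with 73 of 86 above 0 against 49.6% of all 17657 genes tested, and 0 members were called, as were 0% of all genes. In that fit 10 members reached an unadjusted p under 0.05, all of them higher, against 2.44% of all genes higher, 1.77% lower and 4.2% in either direction. Rps20, at 91.9, 65.03 and 99 CPM in cGAS KO, 84.6, 41.3 and 70.9 CPM in STING KO, and 68.5, 66.8 and 19.1 CPM in WT, had a log2 fold change of 0.50 (SE 0.14, edgeR adjusted p = 0.971) and Rps19 had 0.54 (SE 0.15). Among the others were Rpl3, Rpl8, Rpl11, Rpl13, Rps14, Rps15 and Rps12-ps3. With n = 2 in each group, 43 members were higher in both cGAS KO libraries than in both WT libraries, against 14.4% of all genes, and Rps27 alone was lower, against 15%.

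In STING KO against WT most members again had fold changes above 0, with a smaller median. Fold changes above 0 were found for 77 of 86 members against 49.4% of all genes, with a median of 0.22 against 0.00 over all genes. edgeR called 0 members and 0% of all genes, with a smallest adjusted p of 0.99986, and 0 members reached an unadjusted p under 0.05 against 1.63% of all genes. DESeq2 and limma-voom called 0 members. Groups did not overlap for 2 members, Rps19 (0.62, SE 0.31) and Rps12-ps3 (0.52, SE 0.27), both higher in STING KO, against 3.41% of all genes higher and 3.68% lower. The direction of the median rested on WT 3: without that library it was -0.17, with 25 of 86 above 0. It was 0.01 without STING KO 1, 0.45 without STING KO 2, 0.52 without WT 1 and 0.41 without WT 2. Both comparisons with WT use the same WT libraries, so they are not independent of each other.

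Without the low-complexity libraries, members had fold changes in both directions in STING KO against WT. The median was 0.09, with 57 of 86 above 0 against 50.2% of all genes, and edgeR called 0 members and 0.0227% of all genes. No overlap was found for 24 members that were higher and 12 that were lower, against 24.4% and 23.3% of all genes, so the share that was higher was close to that of all genes. Unadjusted p under 0.05 was reached by Rpl8, Rpl13 and Rps15 among the higher and by Rps27 and Rpl9-ps6 among the lower, against 4.02% and 2.89% of all genes (6.9% together). Rps27, a zinc finger protein of the small subunit (chr3:90212522-90213651, minus strand), was at 76.3, 65.5 and 74.9 CPM in cGAS KO, 60.9, 55.4 and 55.3 CPM in STING KO, and 91.9, 79.1 and 25.9 CPM in WT. All STING KO libraries were below WT 1, WT 2 and every cGAS KO library, and WT 3 was lower still. Its log2 fold change was -0.56 (SE 0.13, edgeR adjusted p = 0.558, lower in 2 of 2 libraries) against -0.20 (SE 0.37) with all 9, and it was 0.12 without WT 1 alone. Rpl8, a protein near the peptidyl transferase centre, was at 179, 85 and 146 CPM in cGAS KO, 179.9, 52.7 and 157 CPM in STING KO, and 132, 106 and 30.4 CPM in WT, with a log2 fold change of 0.51 (SE 0.17, edgeR adjusted p = 0.661). Rps27 shares 98.4% of its 100-base stretches with other genes and Rpl8 shares 1.73%. Choroid plexus markers had a median log2 fold change of -3.67 in the same fit, with 8 of 8 at an unadjusted p under 0.05 and 0 called by edgeR, and cortical neuron markers had 0.71. With all 9 libraries these medians were -0.82 and -0.13. The part of these markers in the values of the ribosomal protein genes was not tested.

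STING KO had lower values than cGAS KO for most members. Fold changes above 0 were found for 7 of 86 against 51.1% of all genes, with a median of -0.18 against 0.01 over all genes. With library totals in place of TMM factors it was 19 of 86, with a median of -0.10. edgeR called 0 members and 0% of all genes (smallest adjusted p 0.99999), 0 members reached an unadjusted p under 0.05 against 1.45% of all genes, and DESeq2 and limma-voom called 0 members. For 8 members, Rpl3, Rpl5, Rpl17, Rpl26, Rpl34, Rps3a1, Rps24 and Rps27, all STING KO libraries were below all cGAS KO libraries, against 3.72% of all genes, and for 0 members they were above, against 3.62%. Rpl3 had a log2 fold change of -0.51 (SE 0.24), and Rps3a1, at 219, 294 and 302 CPM in cGAS KO, 203, 188 and 202 CPM in STING KO, and 198, 215 and 84.3 CPM in WT, had -0.46 (SE 0.31). Rps10 lay on the other side at 1.01 (SE 0.51), at 0.904 to 3.85 CPM in these 6 libraries.

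The balance between the 2 knockouts also rested on single libraries. The median was 0.025 without STING KO 2, with 48 of 86 above 0, -0.06 without cGAS KO 1, -0.37 without cGAS KO 2, -0.42 without STING KO 1 and -0.27 without STING KO 3. Without all low-complexity libraries it was -0.11, with 24 of 86 above 0 against 50.8% of all genes, and edgeR called 0 members and 0.017% of all genes. With n = 2 in each group, 27 members were lower in both STING KO libraries against 15.3% of all genes, and Rps10 alone was higher against 16.5%. Rpl23a had a log2 fold change of -0.45 (SE 0.16, edgeR adjusted p = 0.926), and Rps24, Rps27, Rpl3 and Rpl9-ps6 also reached an unadjusted p under 0.05 among the lower, against 1.7% of all genes. Rps10 did so among the higher, against 1.99%, which made 6 members against 3.7% of all genes. Cortical neuron markers had median log2 fold changes of 0.48 with all 9 libraries and 1.43 without the low-complexity ones, and choroid plexus markers had 1.03 and -0.97, and their part was not tested. The p-values that miss the threshold do not show that the genotypes are alike: over the 86 members the SE of the log2 fold change had a median of 0.48 with 9 libraries and 0.16 without the low-complexity libraries.

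**Figure D5:**
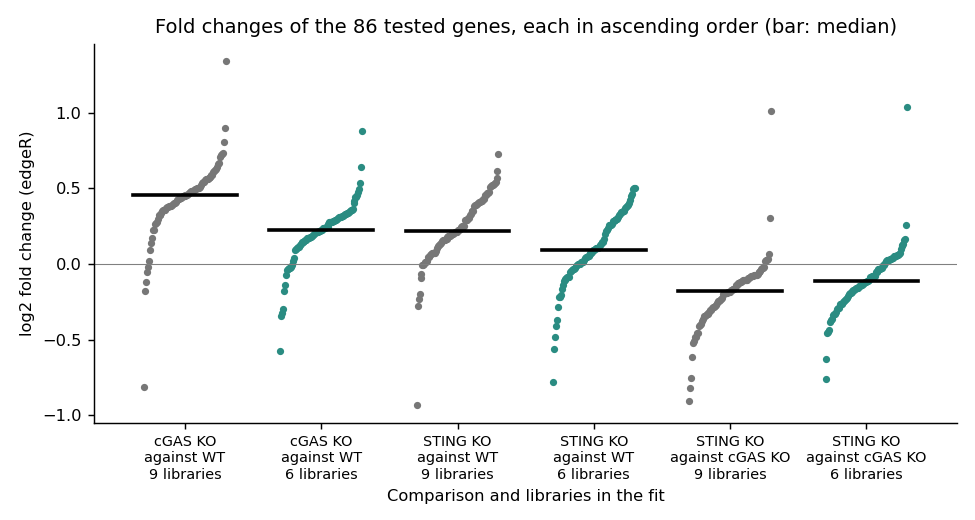
log2 fold changes (edgeR) of the 86 tested ribosomal protein genes in the 3 comparisons, with all 9 libraries (grey) and with the 6 libraries of usual complexity (green), each in ascending order with its median as a bar. The medians are 0.45 and 0.22, 0.22 and 0.09, and -0.18 and -0.11.

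With low complexity as a term in the model, a choice made after seeing the data, the medians were 0.62, 0.31 and -0.28 in the 3 comparisons, in the order given above. In that fit 63, 15 and 6 members reached an unadjusted p under 0.05, against 7.9%, 5.08% and 4.76% of all genes, and 0 members were called, against 0%, 0.00561% and 0.00561% of all genes. This term takes the gap of the 3 libraries to be of one size, whereas the measured median gap was deepest in WT 3.

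Paralogs held the smaller part of the counts of each pair with a standard gene. Rpl22l1, which can replace Rpl22 in the ribosome, was at 21.03, 13.9 and 21.1 CPM in cGAS KO, 24.4, 12.7 and 20.04 CPM in STING KO, and 19.2, 14.4 and 6.49 CPM in WT and held 18.6% to 27.3% of the counts of the pair. Its partner Rpl22 was at 68.1, 57.5 and 56.2 CPM in cGAS KO, 67.9, 40.5 and 67.9 CPM in STING KO, and 63.7, 63.1 and 24.4 CPM in WT. Rpl7l1 was at 30.01, 18.01 and 29.3 CPM in cGAS KO, 28.3, 21.2 and 29.6 CPM in STING KO, and 33.3, 29.1 and 16.1 CPM in WT and held 12.2% ± 1.51 (SD, n = 3) of the counts of its pair with Rpl7 in cGAS KO, 15.4% ± 0.635 in STING KO and 17.8% ± 5.54 in WT. The share was 11.2% to 14.0% in cGAS KO, and the libraries of STING KO (14.9% to 16.1%) and WT (14.5% to 24.2%) all lay above it. The share divides 1 member by another, so a change in either gene moves it. Shares in cGAS KO and WT also did not overlap for Rps10-ps2 with Rps10, at 92.6% to 97.0% against 75.5% to 90.5%. Nor did they for Rpl3l with Rpl3, at 0.179% to 0.227% against 0.252% to 0.473%. The shares were not tested.

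Rps27l and Rps27rt are close relatives of Rps27. Rps27l was at 7.07, 3.01 and 3.73 CPM in cGAS KO, 5.03, 1.81 and 4.97 CPM in STING KO, and 7.49, 5.79 and 0.988 CPM in WT, and Rps27rt, an intronless copy with a TOP start, was at 5.27, 4.75 and 3.86 CPM in cGAS KO, 3.91, 6.75 and 3.91 CPM in STING KO, and 5.01, 5.09 and 2.89 CPM in WT. Rps27l held 3.16% to 8.48% of the counts of its pair and Rps27rt 4.90% to 10.9%. Rpl3l, known as the striated muscle form of Rpl3, stayed at or under 1.44 CPM and held 0% to 0.473% of its pair. Rpl39l, a testis form, had at most 0.223 CPM, and Rpl10l had no count. The 5 tested paralogs had median log2 fold changes of -0.02, 0.01 and 0.03 in the 3 comparisons, and 0 were called by edgeR, with 0 at an unadjusted p under 0.05. Without the low-complexity libraries the medians were -0.14, -0.37 and -0.12, with 1 of 5 above 0 in each comparison, so the direction of the last 2 medians depends on those libraries.

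Outside the naming rule, Fau and Rack1 also encode ribosomal proteins. Fau, a ubiquitin-like fusion that yields a small subunit protein, was at 102, 59.5 and 74.1 CPM in cGAS KO, 103, 43.3 and 92.6 CPM in STING KO, and 71.2, 62.7 and 22.4 CPM in WT. Without the low-complexity libraries the STING KO to WT log2 fold change of Fau was 0.55 (SE 0.17, edgeR adjusted p = 0.660). Rack1, a signalling scaffold on the small subunit, was at 137, 118 and 135 CPM in cGAS KO, 129, 81.9 and 120.4 CPM in STING KO, and 133, 117 and 44.7 CPM in WT. The low-complexity library had the lowest level of each group for both genes, and edgeR called neither in any comparison.

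Among translation factors and other transcripts known for TOP starts, 22 were tested, and 20 had fold changes above 0 in cGAS KO against WT (median 0.41), where 48.5% of all genes did. The other two comparisons had 16 (median 0.07, STING KO to WT) and 0 above 0 (median -0.32, STING KO to cGAS KO), against 49.4% and 51.1% of all genes, with 0 called by edgeR and 1, 0 and 0 at an unadjusted p under 0.05. Without the low-complexity libraries the counts were 18, 9 and 4 of 22, with medians of 0.13, -0.11 and -0.21, so the STING KO to WT median changed direction. Eef1a1, the main elongation factor that delivers tRNA, was at 1931, 2456 and 2945 CPM in cGAS KO, 1773, 1440.5 and 1805 CPM in STING KO, and 1974, 1980.5 and 856 CPM in WT. Eef2, which moves the ribosome along the messenger, was at 1154, 1636 and 1631 CPM in cGAS KO, 1150.5, 1033 and 1093 CPM in STING KO, and 1019.6, 1020.0 and 959.6 CPM in WT, and all its cGAS KO libraries were above all WT libraries (log2 fold change 0.56, SE 0.20). Pabpc1, the poly(A)-binding protein, was highest in cGAS KO 2 at 218, 472 and 335 CPM in cGAS KO, 194, 283 and 197 CPM in STING KO, and 224, 229 and 213 CPM in WT. The median gaps of the 22 genes were 0.04, -0.27 and -0.86 in cGAS KO 2, STING KO 2 and WT 3, shallower than those of the ribosomal protein genes.

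Regulators and assembly factors had medians closer to 0 than the ribosomal protein genes with all 9 libraries. The 26 genes of mTOR signalling, S6 kinases, Larp proteins and related regulators had medians of 0.10, -0.06 and -0.02, with 14, 11 and 11 above 0, and the 56 ribosome assembly factors had medians of 0.05, 0.06 and 0.07, with 31, 37 and 34 above 0. edgeR called 0 of both lists, and 1, 1 and 0 of the regulators and 0, 0 and 0 of the assembly factors reached an unadjusted p under 0.05. Larp1 was at 125, 236 and 170.3 CPM in cGAS KO, 135, 181 and 129 CPM in STING KO, and 126, 136 and 219 CPM in WT, and Mtor was at 119, 182 and 155 CPM in cGAS KO, 126, 162 and 125 CPM in STING KO, and 123, 129.5 and 224 CPM in WT. Both were highest in the low-complexity libraries, the opposite of most ribosomal protein genes. The 77 mitochondrial ribosomal protein genes had medians of 0.03, 0.10 and 0.05 with 0 called. Without the low-complexity libraries the medians were 0.07, 0.01 and -0.10 for the regulators, 0.04, 0.10 and 0.05 for the assembly factors, and -0.05, 0.02 and 0.12 for the mitochondrial ribosomal proteins. These differences between lists are given side by side and were not tested.

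In the 6 libraries of usual complexity most standard genes correlated with the mean of the rest. The same share among other genes is not given here, so these values do not set the family apart. The Pearson correlation of each gene's log2 CPM with the mean of the other standard genes had a median of 0.79, with 58 of 77 above 0.5, and no p is given, since the libraries share the normalization. Least like the rest were Rps27 (-0.06), Rps10 (-0.01) and Rpl24 (0.12), the first with lower levels in both STING KO libraries and the others among the lowest in the family. Over all 9 libraries the median was 0.97, where the low-complexity libraries stand apart.

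Genes with and without a TOP start at the annotated position had values in the same range. The genes without it may still have a TOP start, since 42 of the 78 promoters held such a run near the annotated start. The split therefore cannot show whether a TOP start goes with these values. The 13 standard genes with the start had median gaps of -0.59, -0.95 and -1.47, and the 44 with a listed promoter that lacks it had medians of -0.51, -1.04 and -1.87. The windows printed above span the range: Rpl35, Rpl38 and Rpl28 had mean gaps of -2.91, -2.63 and -2.39, while Rpl35a and Rps15a had mean gaps of -0.25 and 0.11 with pyrimidine runs of the same kind. Median log2 fold changes with and without the start were 0.38 and 0.46 for cGAS KO to WT, 0.22 and 0.22 for STING KO to WT, and -0.14 and -0.18 between the knockouts.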

How the data were processed

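Polyadenylated RNA was sequenced from 9 striatal libraries. The deposited values are whole-number counts of reads per gene, made with HISAT2, featureCounts and the mm10 build per the submitters' processing notes. Versions, the annotation release, strand and multi-mapping settings: not given in the sources used here. Of 54532 gene IDs, 54495 matched GENCODE M21 (GRCm38), and the other 37 took up to 0.0361% of the counts in any library.

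Counts were tested in R 4.3.3 with edgeR 4.0.16 (TMM factors, filterByExpr leaving 17821 genes, quasi-likelihood F test, all 9 libraries in 1 fit, Benjamini-Hochberg threshold 0.05). CPM uses TMM-scaled totals, and log2 CPM a prior count of 2. Standard errors come from the fold change and F. The fits were checked on simulated counts that held no low-complexity libraries, so the check does not cover that feature of the data. A count of 0 allows 3 counts per library, which covers counting error only.

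The members and lists were chosen with earlier results of these data known. Genes were named by role, by the 3 smallest p-values in each direction, by the extremes of level per length and by least likeness to the rest; genes named for their gaps, for unadjusted p-values without the low-complexity libraries or for overlapping annotation were chosen after their values were seen. Alternatives were DESeq2 1.42.0 with no filter but its own, limma-voom (limma 3.58.1), other scalings and filters, a threshold of 0.1, a replicate block, fits of 6 libraries, and leaving libraries out. Low complexity as a covariate, the reference transcript as length and the 50% overlap rule were chosen after seeing the data. Comparisons against WT share the WT libraries. Some genes are not reported here.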

Additional observations from a re-analysis of the deposited data

How the results depend on the processing

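The count of ribosomal protein genes called was 0 in each comparison under every alternative run. Counts over all genes moved from 0 to 1, 10 and 8 with DESeq2 (cGAS KO against WT, STING KO against WT, STING KO against cGAS KO). In the last pair of comparisons they moved to 4 and 4 with no count filter, 4 and 3 without the 3 low-complexity libraries, and 1 and 1 with low complexity as a covariate. The median level per length was 75.9 CPM per kilobase with the longest transcript and 102 with the reference transcript, against 47.1. Rplp1 stayed the highest, and the order of the genes below it changed.

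Leaving out each library in turn gave medians of the 86 genes of 0.05 to 0.78, -0.17 to 0.52 and -0.42 to 0.025 in the 3 comparisons. The second changed direction without WT 3 (-0.17) and the third without STING KO replicate 2 (0.025). Single genes that changed direction were Rps19bp1 in cGAS KO against WT (0.08 without cGAS KO 2, 0.23 without WT 1, range -0.67 to 0.23), Rpl3l there (0.17 without WT 1, range -0.27 to 0.17), Rps27 in STING KO against WT (0.12 without WT 1, range -0.58 to 0.12), Rps27l there (0.06 without STING KO 2, 0.21 without WT 1, range -0.75 to 0.21) and Rps27rt between the knockouts (-0.23 without the 3 low-complexity libraries, -0.05 without cGAS KO 3, -0.24 without STING KO 2, range -0.24 to 0.20). The cause was not tested.

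With the replicate number as a block, 0 genes and 0 members were called and the medians were 0.49, 0.24 and -0.19. Deviations of same-numbered libraries correlated at 0.43, -0.41 and -0.19 between cGAS KO and WT, and 0.33, -0.45 and -0.42 between STING KO and WT. Between the knockouts the correlations were 0.50, 0.47 and 0.06. Whether the numbers pair the samples cannot be decided from these values. Differently numbered libraries were not compared, and the low-complexity library does not carry the same number in every group.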
